A study of Mus musculus with 15 samples.

Results

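The comparison of Ezh2 K735R with wild-type Ezh2 takes every gene of the deposited count table of these 2 genotypes that passed a filter on low counts. The filter kept 13203 of the 14301 genes listed. EZH2 is the enzyme within Polycomb repressive complex 2 (PRC2), and in the K735R form a lysine of EZH2 is replaced by arginine. PRC2 methylates lysine 27 of histone H3, a mark of silenced genes, and PRC1 complexes bind that mark and compact the chromatin. SETD2, the enzyme compared with EZH2 elsewhere in the series, trimethylates lysine 36 of histone H3 and can also methylate non-histone proteins. EZH2 is often abundant in prostate cancer, where its level and activity have been linked to progression.

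RNA was sequenced from prostate epithelial cells of 2-month-old C57BL/6 mice grown as organoids, which are balls of epithelium cultured in a gel. The WT group carried wild-type Ezh2 and the K735R group carried Ezh2 K735R, and the other alteration of the prostate epithelium was shared by both groups. Each group had 2 libraries. The labels do not say that these came from separate animals or cultures, how many animals gave each library, or which cells carried the K735R form, so p-values measure only the spread between these libraries. The totals were 28831228 and 37482322 counts in WT 1 and WT 2 and 30404095 and 29221905 counts in K735R 1 and K735R 2. Levels are given as CPM, counts scaled to a common library total by TMM factors but not by gene length, so levels are compared between libraries and not between genes. Most markers of the label were present, as 23 of 27 luminal and all 20 basal prostate epithelial markers passed the filter. Fewer passed of the stromal (8 of 20), endothelial (6 of 12) and immune markers (3 of 21). Of 10 urothelial genes 9 also passed, summing to 2768 to 3642 CPM per library. Only 6 of 21 prostate and seminal vesicle secretion genes passed. The luminal markers Pbsn, Sbp, Spink1 and Msmb are not listed in the count table. The luminal markers summed to 12302 to 16009 CPM per library, the basal markers to 15711 to 19749 CPM and the stromal markers to 22 to 39.9 CPM. The leukocyte gene Ptprc is not listed in the count table used here.

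The WT libraries differed from each other about as much as they differed from K735R. Across the 13203 genes the log2 CPM of WT 1 and WT 2 correlated at 0.969 and those of K735R 1 and K735R 2 at 0.985. Between a WT and a K735R library the correlation ran from 0.965 (WT 1 and K735R 1) to 0.976 (WT 2 and K735R 2). Between the WT libraries 1474 genes differed by more than 2-fold, against 625 between the K735R libraries. Between a WT and a K735R library 910 to 1352 genes did. WT 1 was low in matrix genes: Fn1, which encodes fibronectin, was at 87.0 CPM in WT 1, 1195 CPM in WT 2 and 187 and 400 CPM in K735R. Mmp9, a gelatinase, was at 4.30 CPM in WT 1, 66.8 CPM in WT 2 and 107 and 106 CPM in K735R. WT 1 was high in proliferation genes: Mki67 was at 317 CPM there, against 88.8 CPM in WT 2 and 238 and 171 CPM in K735R. The basal keratin Krt5 was at 3987 and 1658 CPM in WT and 3178 and 2559 CPM in K735R, and the luminal keratin Krt8 at 1951 and 3646 CPM in WT and 3087 and 3724 CPM in K735R. For Krt5 and Mki67 both K735R libraries thus lay between the WT libraries. The part of this spread in the results below was not tested, and medians without each WT library are given beside the lists.

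Setd2 and Ezh2 transcripts were at like levels in both groups. Ezh2 was at 58.2 and 39.7 CPM in WT and 46.9 and 47.9 CPM in K735R, so the K735R libraries lay within the WT range. Setd2 was at 139 and 131 CPM in WT and 136 and 133 CPM in K735R. The table gives 1 value per gene, so neither the replaced codon nor the allele's share of transcripts can be seen, and these levels do not check the genotype labels.

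In all, 1 gene passed the test. Rpl29 (Entrez 19944; chr9:106428783-106431568, plus strand, mm10), a protein of the large ribosomal subunit, was at 226 and 195 CPM in WT and 22.2 and 24.7 CPM in K735R. It fell in K735R by 3.17 on the log2 scale (SE 0.12, edgeR quasi-likelihood adjusted p = 0.0288, n = 2 against 2), which is 9.0-fold. In bulk samples fewer cells of a type and less RNA per cell cannot be told apart. The single call is 0.00757% of the genes tested, and no gene was called higher. At an unadjusted p under 0.05 there were 606 genes higher (4.59%) and 614 lower (4.65%). The call on Rpl29 was lost without K735R 1 (edgeR adjusted p = 0.9999) or K735R 2 (0.563), where the log2 fold change was −3.09 and −3.25. Gm8210, a copy of Rpl29 on chromosome 1, was at 12.6 and 8.40 CPM in WT and 26.5 and 23.2 CPM in K735R, with a log2 fold change of 1.25 (SE 0.24, edgeR adjusted p = 0.294). The gene and its copy thus lay on opposite sides, and how the authors divided reads between near-identical copies is not given, so both values are uncertain.

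DESeq2, run on the same counts as an alternative, called 185 genes higher (1.40% of those tested) and 108 lower (0.818%). All counts of genes called by DESeq2 below are from that alternative test and did not pass the edgeR test, Rpl29 apart. Genes are also counted here by whether both K735R libraries lay above both WT libraries, which held for 2684 genes (20.3%), or below both, which held for 2900 genes (22%). The median log2 fold change of all genes was −0.01.

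The genes with the smallest unadjusted p among those higher in K735R did not pass the edgeR test, with adjusted p from 0.187 to 0.20 for all 10. Cd200 (chr16:45382111-45409061, minus strand) encodes a surface protein that restrains myeloid cells. It was at 0.20 and 0.70 CPM in WT and 49.0 and 65.7 CPM in K735R, a log2 fold change of 6.92 (SE 0.50), and so was near absent from both WT libraries. Kcnf1, a modulatory potassium channel subunit, was at 2.44 and 1.70 CPM in WT and 19.4 and 16.7 CPM in K735R. Tenm4, a teneurin of the cell surface, was at 12.6 and 14.9 CPM in WT and 49.8 and 41.5 CPM in K735R. Cd34, a sialomucin used as a marker of progenitor cells, was at 30.1 and 22.6 CPM in WT and 85.4 and 82.1 CPM in K735R. The naming rule takes only genes whose groups do not overlap, so that they do not is no finding. Fam162a, a mitochondrial protein gene induced by hypoxia, was at 47.4 and 55.9 CPM in WT and 139 and 133 CPM in K735R. Involucrin (Ivl), a precursor of the cornified envelope, was at 6.37 and 5.63 CPM in WT and 35.3 and 24.4 CPM in K735R. Csta1, a stefin protease inhibitor, was at 9.94 and 7.38 CPM in WT and 32.7 and 29.3 CPM in K735R. The tubulin gene Tubb6 was at 146 and 145 CPM in WT and 257 and 250 CPM in K735R, the smallest difference among the 10 (log2 fold change 0.80). Hcfc1r1 and Tbc1d23 had log2 fold changes of 1.09 and 0.95.

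**Figure D1:**
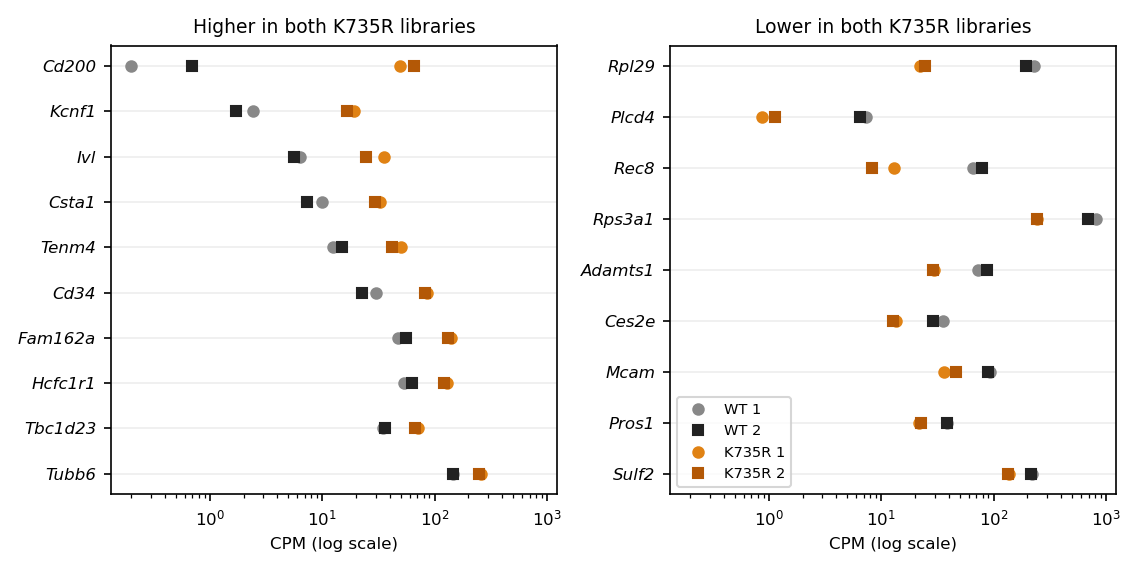
CPM (log scale) of the 10 genes higher and 9 of the 10 genes lower in K735R with the smallest unadjusted p, 1 row per gene and 1 point per library (circles for replicate 1, squares for replicate 2). Cd200 lies near 0.20 and 0.70 CPM in WT and at 49.0 and 65.7 CPM in K735R, and Rpl29 is the only gene shown that passed the edgeR test.

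Of the genes lower in K735R, Rpl29 alone passed. Rps3a1, a protein of the small ribosomal subunit whose gene has many processed copies, was at 813 and 692 CPM in WT and 242 and 243 CPM in K735R. The secreted metalloprotease Adamts1 was at 72.4 and 87.9 CPM in WT and 29.7 and 29 CPM in K735R. The meiotic cohesin subunit gene Rec8 was at 65.7 and 78.7 CPM in WT and 13 and 8.31 CPM in K735R. Sulf2, a sulfatase that trims heparan sulfate, was at 221 and 216 CPM in WT and 136 and 134 CPM in K735R. Plcd4, a phospholipase C, Ces2e, a carboxylesterase, Mcam, an adhesion molecule, and Pros1, the anticoagulant protein S, had log2 fold changes of −2.77, −1.28, −1.14 and −0.80.

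Genes of the hypoxia response and of glycolysis were higher in K735R than in both WT libraries more often than genes in general. Under low oxygen the factor HIF1 binds a short DNA element and raises genes for glucose uptake, glycolysis and angiogenesis. Of 19 hypoxia targets, all tested, 19 lay above both WT libraries and 0 below (background 20.3% above), with a median log2 fold change of 0.93. Of 23 glycolysis genes, all tested, 20 lay above and 1 below, with a median of 0.96 against −0.01 for all genes. No member passed the edgeR test (smallest adjusted p 0.232), and DESeq2 called 10 and 15 members higher and 0 lower. The lists share 2 genes. Without WT 1 the medians were 0.64 and 0.74, with 10 and 18 members called higher by edgeR, where 2.79% of all genes were called higher and 1.98% lower. Without WT 2 they were 1.35 and 0.97, with 17 and 18 members called higher, where 7.71% of all genes were called higher and 4.11% lower. With 1 WT library the spread comes from the K735R pair alone, and the lone library is assumed to vary like it. All 19 hypoxia targets were also higher in WT 2 than in WT 1, with a median log2 ratio of WT 1 to WT 2 of −0.50, and for glycolysis genes the median was −0.20.

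Among the glucose transporters, Slc2a1 (GLUT1) was at 157 and 180 CPM in WT and 281 and 265 CPM in K735R, a log2 fold change of 0.70 (SE 0.11, edgeR adjusted p = 0.243). Among the enzymes, phosphofructokinase Pfkp was at 21.7 and 29.6 CPM in WT and 102 and 74.1 CPM in K735R. Gapdh was at 635 and 630 CPM in WT and 1328 and 1137 CPM in K735R. WT libraries hardly differed in Gapdh, and both K735R libraries were about a log2 unit higher (0.96, SE 0.13). Phosphoglycerate mutase Pgam1 was at 175 and 215 CPM in WT and 394 and 374 CPM in K735R, and phosphoglycerate kinase Pgk1 at 310 and 488 CPM in WT and 867 and 809 CPM in K735R. Ldha, which turns pyruvate into lactate, was at 697 and 743 CPM in WT and 1509 and 1359 CPM in K735R. Pdk1, a kinase that keeps pyruvate out of the mitochondria, was at 22.4 and 31.6 CPM in WT and 106 and 78.7 CPM in K735R. The 7 genes just given had log2 fold changes from 0.70 (Slc2a1) to 1.78 (Pfkp), while pyruvate kinase Pkm was at 0.58. The 7 were named by small p or with their values in view. That their groups did not overlap, or that libraries of a group lay close, is thus no finding. The bifunctional regulator Pfkfb4 was the 1 glycolysis gene below both WT libraries, at 15 and 15.5 CPM in WT and 10.7 and 11.2 CPM in K735R.

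Of the other hypoxia targets, the oxidoreductase Ero1l was at 68.8 and 97.7 CPM in WT and 223 and 184 CPM in K735R, and the respiratory chain factor Higd1a at 24.8 and 26.8 CPM in WT and 46.5 and 37.2 CPM in K735R. A further 3 targets and a glycolysis list member, Slc16a3, were picked with their values in view. The angiogenic factor Vegfa was at 34.9 and 64.5 CPM in WT and 122 and 121 CPM in K735R. The mitophagy receptor Bnip3 was at 2.77 and 9.88 CPM in WT and 30.4 and 29.7 CPM in K735R. The carbonic anhydrase Car9 was at 4.70 and 13.3 CPM in WT and 40.3 and 32.9 CPM in K735R, and the lactate exporter Slc16a3 at 4.84 and 24.7 CPM in WT and 132 and 119 CPM in K735R. In these 4 genes WT 1 was well below WT 2, and both K735R libraries were above both.

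**Figure D2:**
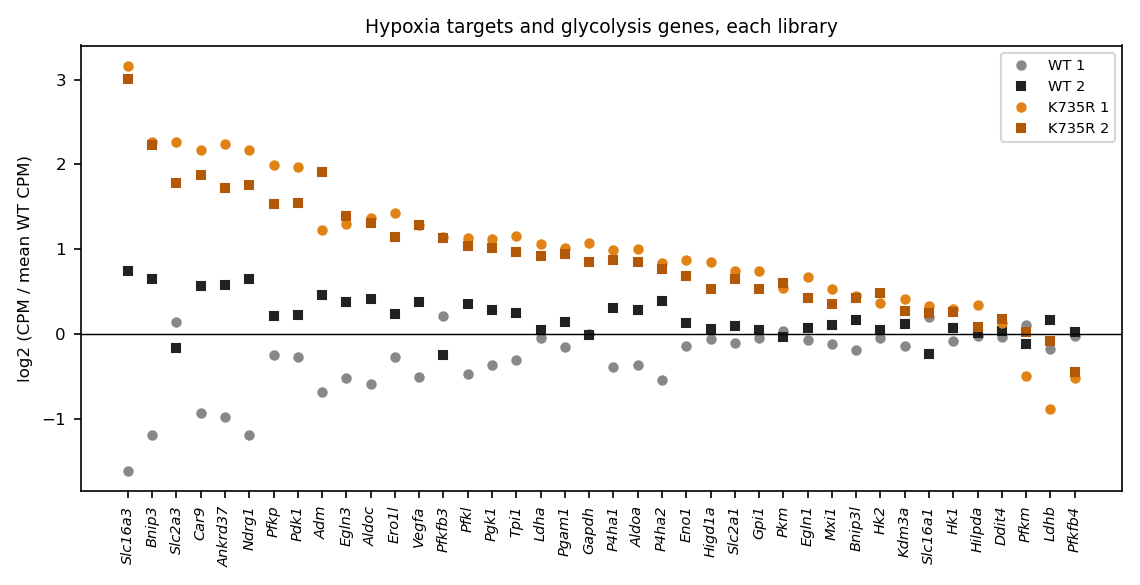
Each tested hypoxia target or glycolysis gene on the horizontal axis, with the log2 ratio of its CPM in each library to its mean WT CPM on the vertical axis (circles for replicate 1, squares for replicate 2, grey and black for WT, orange and brown for K735R). Both K735R points lie above both WT points for all 19 hypoxia targets, while WT 1 lies below WT 2 in most genes and furthest in Slc16a3.

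The reference start-site regions of some of these genes are shown because ACGTG is a form of the core letters that HIF1 binds. The form GCGTG was neither searched nor marked, so a region with 0 matches may still hold the core. The 250 bases before the RefSeq start site nearest to the deposited gene start (GRCm38.p6) are printed 5′ to 3′ on the gene's own strand, with every ACGTG or its reverse complement CACGT in capitals. The palindrome CACGTG counts once on each strand.
Ldha (chr7:46845554-46845803, plus strand): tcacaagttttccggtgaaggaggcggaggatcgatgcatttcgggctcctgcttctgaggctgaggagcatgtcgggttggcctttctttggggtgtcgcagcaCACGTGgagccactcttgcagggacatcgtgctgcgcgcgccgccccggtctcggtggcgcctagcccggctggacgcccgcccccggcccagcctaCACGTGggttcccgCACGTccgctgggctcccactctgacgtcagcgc
Pgam1 (chr19:41911621-41911870, plus strand): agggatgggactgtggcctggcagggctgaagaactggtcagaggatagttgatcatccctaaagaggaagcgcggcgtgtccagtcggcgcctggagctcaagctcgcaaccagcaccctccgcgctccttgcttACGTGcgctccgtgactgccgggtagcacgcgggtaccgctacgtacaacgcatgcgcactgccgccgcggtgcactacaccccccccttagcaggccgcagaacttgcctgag
Slc2a1 (chr4:119108495-119108744, plus strand): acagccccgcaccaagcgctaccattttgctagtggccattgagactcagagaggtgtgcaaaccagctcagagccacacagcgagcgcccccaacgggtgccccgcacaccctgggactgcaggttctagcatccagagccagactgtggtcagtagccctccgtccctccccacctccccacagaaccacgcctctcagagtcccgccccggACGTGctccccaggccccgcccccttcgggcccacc
Ero1l (chr14:45318573-45318822, minus strand): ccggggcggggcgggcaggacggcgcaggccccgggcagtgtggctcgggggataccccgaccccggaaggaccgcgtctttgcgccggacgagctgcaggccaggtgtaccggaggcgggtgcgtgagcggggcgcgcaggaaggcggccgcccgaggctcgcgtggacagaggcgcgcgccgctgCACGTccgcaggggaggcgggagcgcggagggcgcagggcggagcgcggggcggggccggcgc
Pdk1 (chr2:71872974-71873223, plus strand): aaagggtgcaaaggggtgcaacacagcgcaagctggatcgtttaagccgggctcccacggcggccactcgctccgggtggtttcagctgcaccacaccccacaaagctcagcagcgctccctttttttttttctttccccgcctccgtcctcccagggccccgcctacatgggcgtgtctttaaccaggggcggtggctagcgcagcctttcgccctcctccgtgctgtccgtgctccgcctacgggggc
Ldha held 5 matches, beginning 145, 144, 48, 47 and 34 bases before the start site. Pgam1 held 1 match at 114, Slc2a1 1 at 36 and Ero1l 1 at 63 bases before it, and Pdk1 held 0 in this window. Pfkp, Gapdh and Higd1a, named above by the same rule but not printed, also held 0 each. Of 40 genes in either list, 37 had a reference region and 18 of these (48.6%) held the letters, against 2249 of 10482 tested genes with a region (21.5%). The share was 58.8% of 17 hypoxia targets and 40.9% of 22 glycolysis genes. A match describes letters only, and binding was not measured.

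Interferon response genes also lay above both WT libraries more often than genes in general. Interferons act through their receptors on genes that limit viruses, and class I MHC molecules present peptides to T cells. Of 39 interferon genes 37 were tested, and 28 of them (75.7%) lay above both WT libraries and 0 below. Over all genes tested 20.3% lay above and 22% below. The interferon median log2 fold change was 0.94. DESeq2 called 6 higher and 0 lower, against 1.4% and 0.818% of all genes. No member passed the edgeR test (smallest adjusted p 0.285). The median was 0.64 without WT 1 and 1.5 without WT 2. In 35 of the 37 genes WT 1 was below WT 2. Ifi27, an interferon-induced mitochondrial protein gene, was at 14.4 and 18 CPM in WT and 33.2 and 28.3 CPM in K735R. Oasl1, an oligoadenylate synthetase-like protein gene, was at 5.17 and 5.68 CPM in WT and 13.6 and 10.1 CPM in K735R. The regulator Irf7 was at 10.1 and 16.7 CPM in WT and 50.1 and 29 CPM in K735R. These 3 genes, and Ifit1, Tap2 and H2-T23 given below, were named by smallest p, so that their groups did not overlap is no finding. Ifit1, which binds viral RNA, was at 5.17 and 10.6 CPM in WT and 27 and 19.2 CPM in K735R. Of 26 MHC presentation genes 24 were tested, and 16 (66.7%) lay above and 0 below. Their median was 0.44 (0.32 without WT 1, 0.67 without WT 2) and DESeq2 called 0. The peptide transporter gene Tap2 was at 16.4 and 18.9 CPM in WT and 31.1 and 25 CPM in K735R, and the non-classical class I gene H2-T23 at 44.5 and 80.3 CPM in WT and 119 CPM in each K735R library.

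A pair of start-site regions of interferon genes are shown in the same way, with GAAA, any 2 bases and GAAA again, or the reverse complement, in capitals, letters close to the element that interferon factors bind. Isg15, a ubiquitin-like protein, was chosen for its overlapping matches after these were seen.
Ifit1 (chr19:34640639-34640888, plus strand): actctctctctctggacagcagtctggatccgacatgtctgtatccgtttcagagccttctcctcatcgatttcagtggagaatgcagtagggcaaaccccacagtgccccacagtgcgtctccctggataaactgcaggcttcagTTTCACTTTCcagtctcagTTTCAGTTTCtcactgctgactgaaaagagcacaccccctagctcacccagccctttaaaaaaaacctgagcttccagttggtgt
Isg15 (chr4:156200819-156201068, minus strand): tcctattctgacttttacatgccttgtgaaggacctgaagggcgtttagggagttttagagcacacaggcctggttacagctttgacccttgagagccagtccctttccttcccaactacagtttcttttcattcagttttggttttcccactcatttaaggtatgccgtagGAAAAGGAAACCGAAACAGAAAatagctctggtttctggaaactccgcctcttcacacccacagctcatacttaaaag
Ifit1 held 2 matches, beginning 104 and 85 bases before the start site, and Isg15 held 3 that overlap, at 78, 72 and 66 bases. Oasl1 and Irf7, named above by the same rule as Ifit1 but not printed, held 0 each. The letters stood in 14 of 28 interferon genes with a region (50%) and in 266 of 10482 tested genes (2.54%). Isg15 was at 0.801 and 1.43 CPM in WT and 5.76 and 2.46 CPM in K735R.

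Cornified envelope genes, which mark squamous differentiation, and S100 genes lay above both WT libraries more often than genes in general. The cornified envelope is the crosslinked protein shell of surface keratinocytes, and many of its genes, though not Tgm1, sit in the epidermal differentiation complex on chromosome 3 with many S100 genes. Of 26 cornified envelope genes 16 were tested, and 12 (75%) lay above both WT libraries and 0 below. Over all genes tested 20.3% lay above and 22% below. The cornified envelope median log2 fold change was 1.30, and DESeq2 called 8 higher and 0 lower. The median was 1.12 without WT 1 and 2.23 without WT 2. Sprr1b, a small proline-rich precursor, was at 3.50 and 1.70 CPM in WT and 25.1 and 26.4 CPM in K735R. Sprr2d was at 0.167 and 1.13 CPM in WT and 17.1 and 17.7 CPM in K735R. The crosslinking enzyme Tgm1 was at 18.8 and 16.9 CPM in WT and 40.4 and 29.4 CPM in K735R. All 3, like Ivl and the S100 genes and keratins given below, were named by small p. That their groups did not overlap is thus no finding. Of 17 S100 genes 12 were tested, 9 lay above and 0 below, the median was 0.44 (0.32 without WT 1, 0.60 without WT 2), and DESeq2 called 3 higher. The calprotectin genes S100a9 and S100a8 were at 4.07 and 3.12 CPM and at 1.97 and 1.51 CPM in WT. In K735R they were at 25.5 and 16.3 CPM and at 10.2 and 8.17 CPM. S100a7a was at 5.30 and 5.12 CPM in WT and 16.3 and 10.7 CPM in K735R. Keratins, which include basal and luminal ones, lay above less often: of 22 keratins 21 were tested, 7 (33.3%) lay above and 1 below. Their median was 0.24 (0.60 without WT 1, 0.32 without WT 2), and DESeq2 called 3 higher. The stress keratin Krt16 was at 35.1 and 19.1 CPM in WT and 91.1 and 76.8 CPM in K735R. Krt6a was at 1396 and 1113 CPM in WT and 2042 and 1870 CPM in K735R, and Krt6b at 31.3 and 23.6 CPM in WT and 50.3 and 41.9 CPM in K735R. The basal keratin Krt14 was at 2321 and 1881 CPM in WT and 3128 and 2577 CPM in K735R. By chromosome, the largest share of genes called by DESeq2 was on chromosome 3, with 23 higher and 13 lower of 644 tested (5.59%). Over all genes 1.4% were called higher and 0.818% lower, and called list members on chromosome 3 are counted again here.

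Matrix proteases were mixed. Of 27 proteases and inhibitors 24 were tested, 9 (37.5%) lay above and 4 (16.7%) below, where 20.3% and 22% of all genes did. DESeq2 called 4 higher and 2 lower, against 1.4% and 0.818% of all genes. The median was 0.21 with all libraries, −0.12 without WT 1 and 0.85 without WT 2, so its sign turned on WT 1. Among the members with the smallest p, the collagenase Mmp13 was at 2.00 and 8.32 CPM in WT and 26.6 and 37.7 CPM in K735R, Mmp3 at 6.34 and 11.5 against 23.8 and 29.3 CPM, and Mmp1b at 1.27 and 0.431 against 7.40 and 5.54 CPM. The epithelial protease Mmp7 (matrilysin) was at 1726 and 1613 CPM in WT and 1096 and 1255 CPM in K735R, and Adamts1, given above, was also below WT. Of 25 collagens 18 were tested, 1 (5.56%) lay above and 7 (38.9%) below, and the median was −0.40 (−0.25 without WT 1, −0.26 without WT 2). The anchoring fibril collagen Col7a1 was at 621 and 698 CPM in WT and 449.5 and 504 CPM in K735R, and the basement membrane chain Col4a6 at 20.5 and 20.3 CPM in WT and 11.9 and 13.4 CPM in K735R. Col8a1 was the one above, at 301 and 373 CPM in WT and 464 and 545 CPM in K735R.

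The subunits of PRC2 did not separate the groups, and those of PRC1 lay slightly below WT. Of 12 PRC2 subunit genes, all tested, 0 lay above both WT libraries and 2 below, with log2 fold changes from −0.21 to 0.28 and a median of −0.01 (0.14 without WT 1, −0.07 without WT 2). Of 19 PRC1 subunit genes, all tested, 0 lay above and 10 below (background 22% below), with a median of −0.23 (−0.16 without WT 1, −0.25 without WT 2), and neither edgeR nor DESeq2 called any. At an unadjusted p under 0.05 by edgeR 4 PRC1 genes were lower. Scmh1, a Polycomb group protein gene, was at 97.5 and 97.4 CPM in WT and 74.5 and 76.1 CPM in K735R, and the Polyhomeotic gene Phc3 at 99.8 and 109 CPM in WT and 79.9 and 81.5 CPM in K735R. The other two by the same rule, Pcgf2 and the E3 ligase Rnf2, had log2 fold changes of −0.31 and −0.23.

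Hox genes, which pattern the body axis and are classical Polycomb targets, lay mostly below WT. Of 39 Hox genes 28 were tested, 2 lay above both WT libraries and 15 below, the median was −0.34 (−0.19 without WT 1, −0.40 without WT 2), and DESeq2 called 1 lower. In the Hoxa cluster 9 of 11 tested genes lay below and 0 above, in the Hoxb cluster 5 of 9 below and 1 above, and in the Hoxd cluster 1 of 8 below and 1 above. Hoxa5 was at 13 and 11 CPM in WT and 5.76 and 6.20 CPM in K735R. Hoxa6 was at 4.97 and 3.18 CPM in WT and 2.34 and 1.52 CPM in K735R. Hoxb6 was at 20.8 and 17.7 CPM in WT and 12.7 and 14 CPM in K735R, and Hoxb5 at 9.71 and 7.97 CPM in WT and 4.42 and 5.85 CPM in K735R. The Hoxa cluster lies on chromosome 6 within 5 Mb of Ezh2, where 23 of 51 tested genes lay below WT and 2 above. The 9 Hoxa genes below WT are counted again among these. Within 5 Mb of Setd2 on chromosome 9, a stretch that holds Rpl29, 50 of 126 tested genes lay below WT and 17 above. Over all genes tested, 22% lay below and 20.3% above, and position was not tested. Of 42 other developmental and cell cycle inhibitor genes known as Polycomb targets 27 were tested, 2 lay above and 10 below, the median was −0.17 (−0.23 without WT 1, −0.06 without WT 2), and DESeq2 called 2 lower and 0 higher. The called genes were the secreted factor Bmp4, at 3.84 and 4.58 CPM in WT and 0.670 and 0.277 CPM in K735R, and the homeobox factor Isl1, at 8.57 and 4.55 CPM in WT and 1.37 and 1.70 CPM in K735R. The homeobox gene Msx2 was at 30.8 and 35.8 CPM in WT and 23 and 22.9 CPM in K735R.

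Targets of p53, which arrest growth or prompt cell death, lay mostly below WT. Of 21 targets, all tested, 1 (4.76%) lay above both WT libraries and 13 (61.9%) below, where 20.3% and 22% of all genes did. The median was −0.24 (−0.27 without WT 1, −0.21 without WT 2) and DESeq2 called 2 lower, against 0.818% of all genes. Trp53inp1, a stress-induced regulator of autophagy and cell death, was at 403 and 418 CPM in WT and 280 and 254 CPM in K735R. The death receptor gene Eda2r was at 60.7 and 65.4 CPM in WT and 39.7 and 44.7 CPM in K735R, the RNA-binding protein gene Zmat3 at 211 and 216 against 167 and 163 CPM, and the stress cytokine Gdf15 at 9.98 and 10.8 against 5.36 and 6.10 CPM. These 4 genes were named by smallest p, so that the libraries of a group lay close together is no finding. Proliferation genes did not separate the groups: of 37 replication and 32 mitosis genes, all tested, 0 lay above or below both WT libraries. Their median log2 ratios of WT 1 to WT 2 were 1.13 and 1.56, and the medians against K735R changed sign with the WT library used, from 0.56 and 1.02 without WT 1 to −0.53 and −0.59 without WT 2.

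In the PI3K-AKT pathway, which carries growth factor signals, 28 of 29 genes were tested. Of these 7 (25%) lay above and 10 (35.7%) below, where 20.3% and 22% of all genes did. The median was 0.02 (−0.02 without WT 1, 0.01 without WT 2), and DESeq2 called 2 higher and 2 lower, against 1.4% and 0.818% of all genes. The genes above and those called higher include Pdk1, the pyruvate dehydrogenase kinase given above, whose symbol is also an older name of a kinase of this pathway. The phosphatase gene Inpp4b, which removes a phosphate from a product of PI3K, was at 5.40 and 3.31 CPM in WT and 19.1 and 27 CPM in K735R, a log2 fold change of 2.41 (SE 0.33, edgeR adjusted p = 0.232). The regulatory subunit genes Pik3r3 and Pik3r1 were at 134 and 115 CPM and at 69.4 and 59.3 CPM in WT. In K735R they were at 81.0 and 84.8 CPM and at 44.7 and 40.8 CPM.

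**Figure D3:**
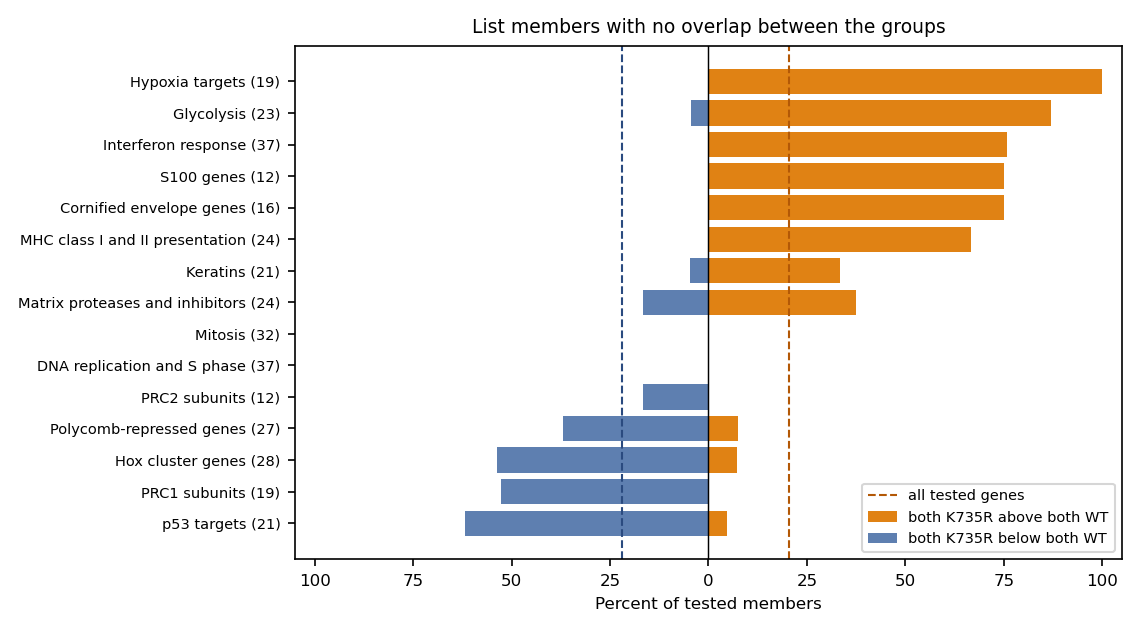
For 15 gene lists (tested members in brackets), bars give the percent of tested members with both K735R libraries above both WT libraries (orange, to the right) or below both (blue, to the left), and dashed lines give the same over all 13203 genes (20.3% and 22%). Hypoxia targets reach 100% above, while p53 targets, Hox and PRC1 genes pass 50% below.

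The other 33 lists are summarised together. In the 24 of them with at least 10 tested members the median log2 fold change ran from −0.40 (collagens) to 0.35 (chemokines, cytokines and acute phase). Sterol and fatty acid synthesis genes had 19 of 30 above and 4 below, against 20.3% and 22% of all genes. Their median was 0.14, with 0 called by DESeq2. The list with the lowest median log2 ratio of WT 1 to WT 2, chemokines and cytokines (−1.24), had a median of −0.09 against K735R without WT 1 and 0.90 without WT 2. Glycolysis genes combined a high median (0.96) with a small difference between the WT libraries (−0.20).

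**Figure D4:**
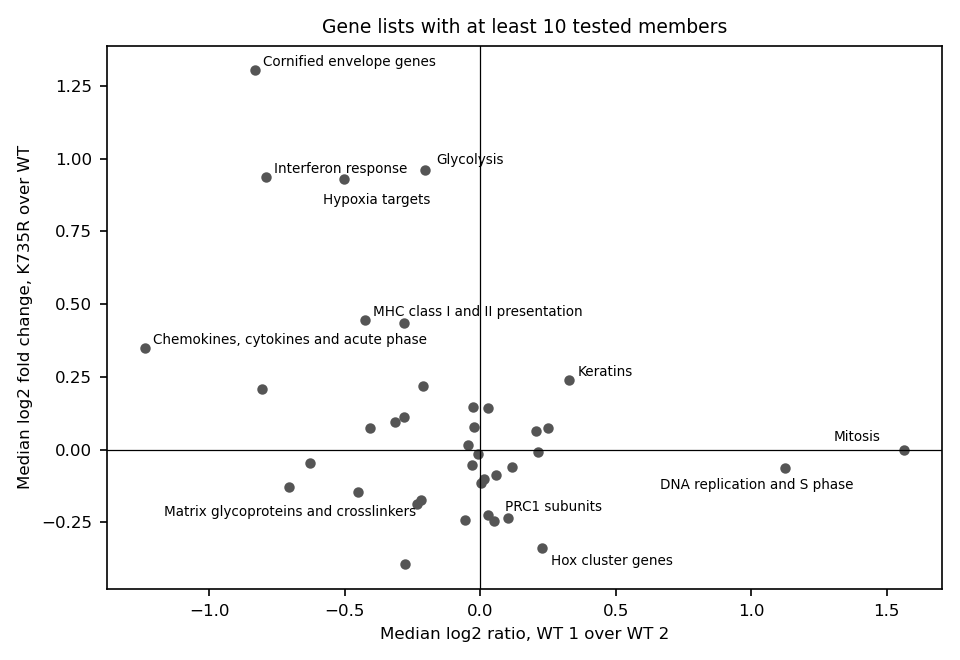
Each point is a gene list with at least 10 tested members: the horizontal axis gives the median log2 ratio of WT 1 to WT 2 and the vertical axis the median log2 fold change of K735R over WT. Mitosis genes differ most between the WT libraries (1.56) and sit at −0.00 on the vertical axis, while glycolysis genes sit at 0.96 with a WT ratio of −0.20.

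The series also deleted Setd2 or Ezh2 in organoids of 3-month-old C57BL/6 mice, deposited as RPKM (reads scaled by library size and gene length) in a table that shares no sample with the K735R counts. Those groups differ from the K735R groups in age and in their other alteration, and each of their libraries pooled RNA of 3 biological replicates. Both deletions were compared with the same control libraries, so their values below are given side by side only. Across 11177 genes tested in both tables, the log2 fold changes of K735R correlated with those of Setd2 null at 0.444 (Spearman 0.413) and with those of Ezh2 null at −0.282 (Spearman −0.256). Genes are not independent replicates, and these are descriptions.

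In Setd2 null, limma called 43 genes higher (0.379%) and 78 lower (0.688%). Of the 42 higher genes also tested in K735R, 30 (71.4%) lay above both WT libraries and 1 below. Of the 77 lower genes, 42 (54.5%) lay below and 3 above. Over all genes tested in K735R, 20.3% lay above and 22% below. In Ezh2 null, 36.1% of genes were called higher and 20.5% lower. Of the genes that DESeq2 called higher in K735R, 168 were tested there, and 22 (13.1%) rose and 107 (63.7%) fell in Ezh2 null, while 13 (7.74%) rose and 1 (0.595%) fell in Setd2 null. Of the 87 that DESeq2 called lower in K735R, 51 (58.6%) rose and 10 (11.5%) fell in Ezh2 null, and 0 rose and 11 (12.6%) fell in Setd2 null. The genes called by DESeq2 in K735R thus lay mostly opposite to Ezh2 loss. Of all 3994 genes higher in Ezh2 null and tested in K735R, 13.1% lay above both WT libraries and 25.6% below. Median log2 ratios of WT 1 to WT 2 and Ezh2 null medians were 1.56 and 0.76 for mitosis genes. They were −1.24 and −1.73 for chemokines and cytokines, 1.13 and 1.18 for replication genes and −0.79 and −1.55 for interferon genes. The signs differed, for example, for cornified envelope genes (−0.83 and 1.13) and basal markers (0.25 and −0.58). The part of the WT spread in this opposition was not tested.

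Cd200 rose in Setd2 null by 4.05 on the log2(RPKM + 1) scale (SE 0.33, limma adjusted p = 0.00251, n = 2 against 2), and its log2 fold change was 0.39 in Ezh2 null, which did not pass (limma adjusted p = 0.345). That second value was −0.19 without control 1 and 0.97, a call, without control 2. Rpl29 fell by 2.85 in Setd2 null and rose by 1.59 in Ezh2 null. Dmtn, a red cell membrane skeleton protein gene chosen after its values were seen, was at 0.701 and 1.91 CPM in WT and 16.2 and 22.4 CPM in K735R, and rose by 1.41 in Setd2 null. The carbonic anhydrase Car12, chosen in the same way, was at 12.5 and 5.87 CPM in WT and 32.1 and 22.1 CPM in K735R, and rose by 1.77 in Setd2 null and 1.47 in Ezh2 null. Hypoxia targets and glycolysis genes did not follow Setd2 loss: their medians in Setd2 null were −0.02 and 0.01 with 0 members called. In Ezh2 null their medians were −1.35 and −0.65, with 18 of 19 hypoxia targets and 15 of 22 glycolysis genes lower. Slc2a1 fell by 0.85 in Ezh2 null, and Tenm4 by 2.48. Interferon genes had a median of 0.40 in Setd2 null, with 3 of 37 higher, and −1.55 in Ezh2 null, with 34 of 37 lower.

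**Figure D5:**
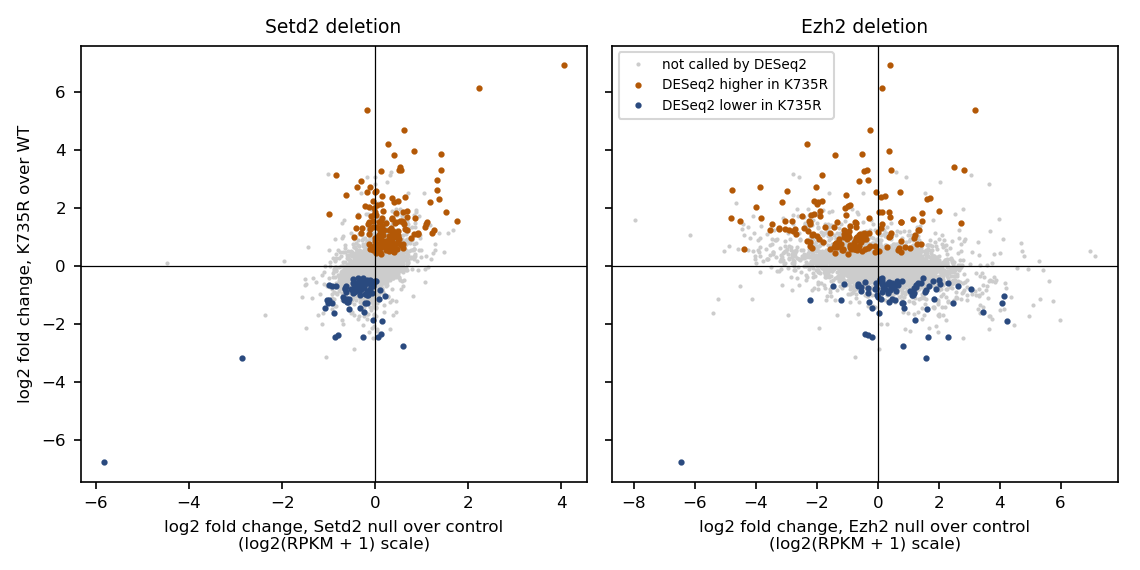
Log2 fold change of K735R over WT (vertical) against that of Setd2 null (left) or Ezh2 null (right) over control on the log2(RPKM + 1) scale, 1 point per gene for 11177 genes, with genes called by DESeq2 in K735R in brown (higher) and blue (lower). The cloud tilts upward for Setd2 null (r = 0.444) and downward for Ezh2 null (r = −0.282).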

How the data were processed

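The 4 WT and K735R libraries were deposited by the authors as whole-number counts per gene with gene symbols and Entrez identifiers. The 8 libraries of the deletion groups were deposited as RPKM. The submitters' processing notes name Bowtie, RSEM and mm10, while versions, strand settings and the handling of shared reads are not stated in the sources used. Symbols that a spreadsheet had turned into dates (19 in the count table) were renamed by Entrez identifier.

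Counts were filtered with filterByExpr, scaled by TMM and tested with edgeR 4.0.16 (robust quasi-likelihood, R 4.3.3), with Benjamini-Hochberg adjustment over all 13203 genes and a threshold of 0.05. RPKM values were tested with limma 3.58.1 (trend, robust) on log2(RPKM + 1), all groups in 1 fit, over 11338 genes whose mean reached 1 RPKM, and the pseudocount understates the change of low genes. The log2 values are computed here from the deposited RPKM. DESeq2 1.42.0, limma on log2 CPM, other scalings and filters, a replicate block and leaving out each library were alternatives. Medians and counts of lists without each WT library were added after seeing the data. The scripts were tested on simulated data.

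The members and lists were chosen with earlier results of these data known. Named genes were the 10 highest and 10 lowest called genes outside the WT range with a mean of at least 5 CPM, filled by smallest unadjusted p, and up to 4 members of each list by smallest unadjusted p. Outside it, Bnip3, Car9, Slc16a3, Vegfa, Pgk1, Pkm, Pfkfb4, Car12, Dmtn, Gm8210, Isg15, Krt5, Krt8, Mki67 and Mmp7 were named with their values in view. Motifs were searched on both strands of 250 bases before the RefSeq start site, and matches may overlap. A further gene altered in both groups and 1 gene that the rule names are not reported here.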

Additional observations from a re-analysis of the deposited data

How the results depend on the processing

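The count of genes called in K735R against WT was 1 under median-ratio scaling, without TMM factors, without a filter, with a mean of at least 10 counts, without robust moderation and with at least a 2-fold change. DESeq2 called 293 genes, 185 higher and 108 lower, and limma on log2 CPM called 2, both lower. A fit with the replicate number as a block called 4, 2 higher and 2 lower. The libraries share only a number: the replicate differences of the groups correlated at 0.101 across genes. Leaving out 1 library gave 0 to 1595 calls, 0 to 1040 higher and 0 to 555 lower. There were 644 calls without WT 1 and 1595 without WT 2, and 0 without K735R 1 or K735R 2 (330 and 490 genes at an unadjusted edgeR p under 0.05). Without TMM factors the median log2 fold change of all genes was −0.06, and 496 of 1261 genes at an unadjusted p under 0.05 were higher, against 606 of 1220 with them. Of the 84 named genes, DESeq2 brought 60 past the threshold, the replicate block 1 and limma 0, and leaving out WT 1 or WT 2 brought 62 and 69. Setd2, at −0.00, took the other sign at 0.0063 under median-ratio scaling, 0.0043 without a filter and 0.0064 with DESeq2, and ran from −0.0287 to 0.0387 when 1 library was left out. Ezh2, at −0.05, ran from −0.28 without WT 2 to 0.25 without WT 1. In Ezh2 null, Cd200 ran from −0.19 without control 1 to 0.97 without control 2. List medians kept their sign in all 13 settings for hypoxia (0.64 to 1.35), glycolysis (0.74 to 1.02), interferon (0.64 to 1.5), Hox (−0.40 to −0.19) and p53 targets (−0.30 to −0.21), but not for proteases (−0.12 to 0.85), PRC2 subunits (−0.07 to 0.14), replication (−0.53 to 0.56) or mitosis genes (−0.59 to 1.02).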
